A study of Mus musculus with 8 samples.

Results

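The genes described here encode the proteasome: the subunits of its barrel-shaped core, of its regulatory caps and the factors that assemble them. They were chosen by symbol from the deposited gene table. The rule took symbols that begin with Psma to Psmg followed by a digit, left out the 5 interferon-inducible genes Psmb8, Psmb9, Psmb10, Psme1 and Psme2, and added Pomp and Adrm1. It gave 48 genes of the 22274 in the table. All 8 libraries came from RFB, a mouse kidney line with the label fibroblast, and the cells of all 8 had TGF-β, which promotes fibrosis. In 4 libraries (TGF-β+chaetocin, called the chaetocin libraries here) the cells also received chaetocin, a fungal compound used to inhibit the histone methyltransferase SUV39H1, and in 4 (TGF-β) they did not. The sources used here give no dose, time or passage, no label gives a genotype, and the series' design text names Suv39h1 knockdown cells that none of the labels mention. No library without TGF-β was analysed here, and no source says whether replicates were separate cultures, so the p-values rest on a spread between libraries that may be technical only. The comparison asked how transcript levels under TGF-β differed when chaetocin was present.

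The proteasome degrades proteins that carry ubiquitin chains. Its 20S core is a stack of rings, outer ones of alpha subunits that gate the entrance and inner ones of beta subunits, a few of which cut peptide bonds. The 19S cap has a base with a ring of ATPases that unfold substrates and a lid that removes the ubiquitin, and a complete particle needs each subunit in a fixed ratio. When proteasome activity is blocked, the transcription factor NRF1, encoded by Nfe2l1, is known to raise the subunit genes together through antioxidant response elements in their promoters. Interferon is known to replace the cutting beta subunits by the immunoproteasome subunits encoded by Psmb8, Psmb9 and Psmb10.

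Total counts were 14421225 to 22591935 in the chaetocin libraries, where replicate 1 was the deepest and the other 3 reached at most 15084876, and 20135312 to 23664084 in the TGF-β libraries. A count of 3 corresponded to 0.133 to 0.208 CPM in the chaetocin libraries and 0.127 to 0.149 CPM in the TGF-β libraries. Mitochondrial transcripts took 6.65% to 6.70% of counts with chaetocin and 6.66% to 7.05% with TGF-β alone. The label fibroblast was checked against markers, which did not settle it, since epithelial markers were abundant in all 8 libraries and the markers of a cell type did not move together. Calls among them are at an adjusted p under 0.05 in edgeR, where 42.0% of all 14608 tested genes rose with chaetocin and 38.8% fell. The summed level of 12 fibroblast markers was 2043 to 2374 CPM with chaetocin and 2693 to 2796 CPM with TGF-β alone, with Lum under 1 CPM in all 8 libraries. Of the 11 tested, 2 rose, the smooth muscle actin gene Acta2 (0.36) and Dcn (4.06). Dcn had counts of 3, 3, 1 and 4 in the TGF-β libraries, near the 3-count floor, and averaged 2.28 CPM with chaetocin, so its fold is uncertain. The 5 that fell included Col1a1 (-2.01), Pdgfrb (-1.68) and Vim (-1.40, all log2 fold changes). The summed level of 13 tubule epithelium markers, among them the keratin genes Krt8 and Krt18 and the cadherin gene Cdh1, was 6544 to 6814 CPM with chaetocin and 3633 to 3793 CPM with TGF-β alone, and 4 of them (Aqp2, Slc12a3, Slc34a1 and Umod) stayed under 1 CPM. Most of that sum was Krt8 and Krt18, which rose by 1.19 and 1.13 on the log2 scale. Of the 10 tested, 5 rose and 4 fell, namely Lrp2 (-0.68), Pax2 (-0.63), Pax8 (-0.49) and Cdh1 (-0.07, but 0.04 under total count). The summed level of 12 macrophage and leukocyte markers was 183 to 216 CPM with chaetocin and 290.2 to 329 CPM with TGF-β alone, with Cd3e under 1 CPM. Of the 10 tested, 6 fell, and 4 rose, namely Cd68 (0.94), Cd14 (0.87), Itgam (0.55) and Ptprc (0.29). The summed level of 7 endothelial markers, of which 5 rose and 2 fell, was 103 to 113 CPM with chaetocin and 53.7 to 60.9 CPM with TGF-β alone. The part of these marker differences in the values below was not tested, and in bulk libraries fewer cells of a type and less RNA per cell cannot be told apart.

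Of the 48 genes, 46 had enough counts to be tested. With chaetocin 22 of them (47.8%) rose and 12 (26.1%) fell at an adjusted p under 0.05 in edgeR, and 12 did not pass. Among all 14608 tested genes 42.0% rose and 38.8% fell, so the share of proteasome genes that rose was near that of all genes and the share that fell was lower. The groups did not overlap for 29 of the 46 (63.0%), against 74.7% of all tested genes. The changes were small. The median size of the log2 fold change was 0.14 among the 46 and 0.45 among all tested genes, and the median with its sign was 0.09 among the 46 and 0.02 among all tested genes. Of the 46, 45 lay within a fold of 1.5 in either direction, against 59.1% of all tested genes. When the test asked for more than a fold of 1.5 (glmTreat), 1 member passed, against 33.2% of all tested genes, and that member was Psmb3.

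The scaling between libraries moved every member by the same 0.11 on the log2 scale, an amount close to the size of most changes. Under total-count scaling, which divides by the sum of all counts, 31 of the 46 rose (67.4%) and 4 fell (8.70%), against 49.2% and 30.9% of all tested genes. The median log2 fold change was then 0.21 among the members and 0.14 among all tested genes. All 22 members that rose under TMM, the scaling used for the values below unless another is named, also rose under total count. Of the 12 that fell, Psma7, Psmb6, Psme4 and Psmd10 fell under both scalings, 5 more stayed below 0 without passing, and Psmb1, Psmc3 and Psmc4 lay above 0 without passing. Of the 12 that did not pass, 9 rose under total count. As a share of raw counts, the 48 genes took 0.547% to 0.552% with chaetocin and 0.481% to 0.486% with TGF-β alone. The summed TMM-scaled level of the 46 tested members was 5257 to 5305 CPM with chaetocin and 5027 to 5059 CPM with TGF-β alone, a ratio of 1.05.

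**Figure D1:**
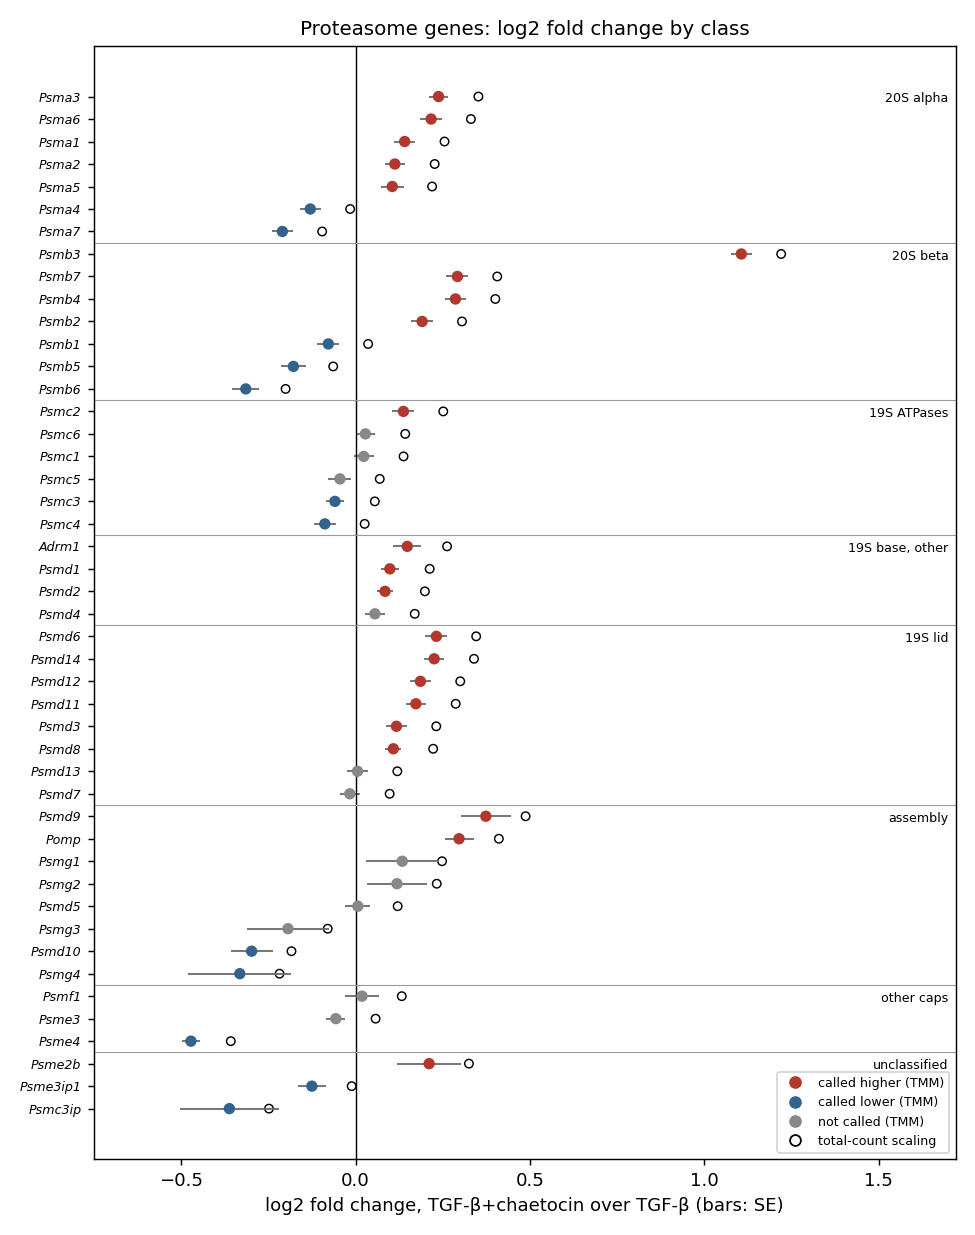
Log2 fold change, TGF-β+chaetocin over TGF-β, of the 46 tested proteasome genes by class, with filled points for TMM scaling (bars are SE, colour gives the call) and open points for total-count scaling. Psmb3 stands alone at 1.11, Psme4 is the lowest at -0.47, and the open points all sit 0.11 to the right of the filled ones.

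The promoters of 4 members are shown because they belong to the largest rise and the largest fall among the ring subunits (Psmb3 and Psmb6), the largest fall of all (Psme4) and the largest rise among the assembly factors (Psmd9). Each runs from 250 bases before to 50 after the RefSeq start site on the gene's own strand, build GRCm38.p6. In the GENCODE M21 annotation Psmd9 runs from 123169413 to 123250131, so its window lies inside the annotated gene and not at that start. Capitals mark CCAAT in Psmb3, and the antioxidant response element core TGACNNNGC, read on either strand, in the other 3.
Psmb3 (chr11:97703184-97703483, plus strand): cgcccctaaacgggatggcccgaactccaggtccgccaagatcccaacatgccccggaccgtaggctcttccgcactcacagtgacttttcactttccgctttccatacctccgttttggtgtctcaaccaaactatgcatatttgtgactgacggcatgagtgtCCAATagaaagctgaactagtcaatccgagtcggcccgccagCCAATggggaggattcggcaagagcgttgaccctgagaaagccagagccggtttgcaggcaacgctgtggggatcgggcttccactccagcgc
Psmb6 (chr11:70525107-70525406, plus strand): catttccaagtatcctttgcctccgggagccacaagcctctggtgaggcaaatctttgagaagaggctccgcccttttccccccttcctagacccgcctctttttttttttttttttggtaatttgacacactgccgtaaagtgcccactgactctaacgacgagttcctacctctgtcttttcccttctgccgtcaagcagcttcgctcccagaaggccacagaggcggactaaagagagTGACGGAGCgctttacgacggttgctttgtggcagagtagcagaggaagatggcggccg
Psme4 (chr11:30771525-30771824, plus strand): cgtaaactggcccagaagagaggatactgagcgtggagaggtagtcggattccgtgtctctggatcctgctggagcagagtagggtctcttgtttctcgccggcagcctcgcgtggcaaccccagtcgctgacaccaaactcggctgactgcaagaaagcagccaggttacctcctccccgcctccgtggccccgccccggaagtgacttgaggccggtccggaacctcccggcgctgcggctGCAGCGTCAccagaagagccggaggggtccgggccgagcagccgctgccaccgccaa
Psmd9 (chr5:123227940-123228239, plus strand): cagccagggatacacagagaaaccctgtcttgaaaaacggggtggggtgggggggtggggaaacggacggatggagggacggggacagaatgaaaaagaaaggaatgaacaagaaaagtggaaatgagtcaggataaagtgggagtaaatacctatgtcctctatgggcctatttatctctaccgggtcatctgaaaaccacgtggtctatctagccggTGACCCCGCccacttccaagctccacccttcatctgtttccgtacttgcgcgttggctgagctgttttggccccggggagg
The genes that fell (Psmb6 and Psme4) and the gene that rose (Psmd9) each held 1 copy of the antioxidant core, and Psmb3 held none of it.

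Motif strings were counted on both strands in the 40 members that have a promoter in the RefSeq table and in all 27025 genes of that table. TGACNNNGC occurred in 7 of the 40 (17.5%, namely Adrm1, Psmb5, Psmb6, Psmc6, Psmd12, Psmd9 and Psme4), against 14.0% of all genes. It stood in 3 of the 19 promoters of members that rose and in 3 of the 10 of members that fell. CCAAT occurred in 16 of the 40 (40.0%), against 41.1% of all genes. The AP-1 string TGACTCA occurred in 1 of the 40 (2.50%, Psmd9), against 5.95% of all genes, and the heat shock string GAANNTTC in 2 (5%, Psmb5 and Psmf1), against 9.04%. The GC box GGGCGG occurred in 23 (57.5%), against 38.2%, in 12 of the 19 promoters of members that rose and 8 of the 10 of members that fell. In the Psmd9 window the GC box overlaps the antioxidant core. Such a match is a description of the letters and not of a bound site.

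Psmb3 (ENSMUSG00000069744, chromosome 11, 97703399 to 97713500, plus strand, GRCm38) encodes a beta subunit that forms part of the ring wall and does not cut. It had 163, 168, 162 and 168 CPM in the chaetocin libraries, against 78.2, 75.7, 77.4 and 75.5 CPM in the TGF-β libraries. Every chaetocin library was above every TGF-β library by a wide margin, and within each group the 4 values lay close together. The log2 fold change was 1.11 ± 0.03 (SE), adjusted p = 1.03e-22, a fold of 2.15, and 1.22 under total count. The next highest member was Psmd9 at 0.37. Set against the geometric mean of the 43 tested members in the 7 classes of the same library, a measure that no scaling between libraries can move, Psmb3 was 1.04 higher on the log2 scale with chaetocin. No exon of another annotated gene overlaps it.

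Psmb3's nearest tested neighbours on chromosome 11, 3 on each side, were looked up after its value was seen. All 6 rose with chaetocin, against 42.0% of all tested genes, and they share a stretch of chromosome, so they are not independent observations. Pcgf2, a Polycomb group gene on the opposite strand whose start lies 2902 bases from that of Psmb3, had 46.9, 49.2, 44.02 and 49.5 CPM in the chaetocin libraries, against 20.9, 22.7, 20.2 and 18.4 CPM in the TGF-β libraries (log2 fold change 1.21 ± 0.06 (SE), adjusted p = 5.99e-17). These groups did not overlap, and the fold was about as large as that of Psmb3. Mllt6, whose start lies 39985 bases away, had the largest change of the 6, at 232 ± 13.7 CPM with chaetocin and 59.2 ± 2.06 CPM with TGF-β alone (SD, n = 4 each, log2 fold change 1.97 ± 0.04 (SE), adjusted p = 5.5e-26). Cwc25, a splicing factor gene, averaged 112 ± 2.603 CPM with chaetocin and 33.4 ± 2.03 CPM with TGF-β alone (SD, n = 4 each, log2 fold change 1.74 ± 0.04). Cisd3, Pip4k2b and the ribosomal protein gene Rpl23 changed less, by 0.45 ± 0.10, 0.26 ± 0.04 and 0.26 ± 0.03 on the log2 scale. Ribosomal protein genes such as Rpl23 can share reads with processed copies, so its value is less certain.

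**Figure D2:**
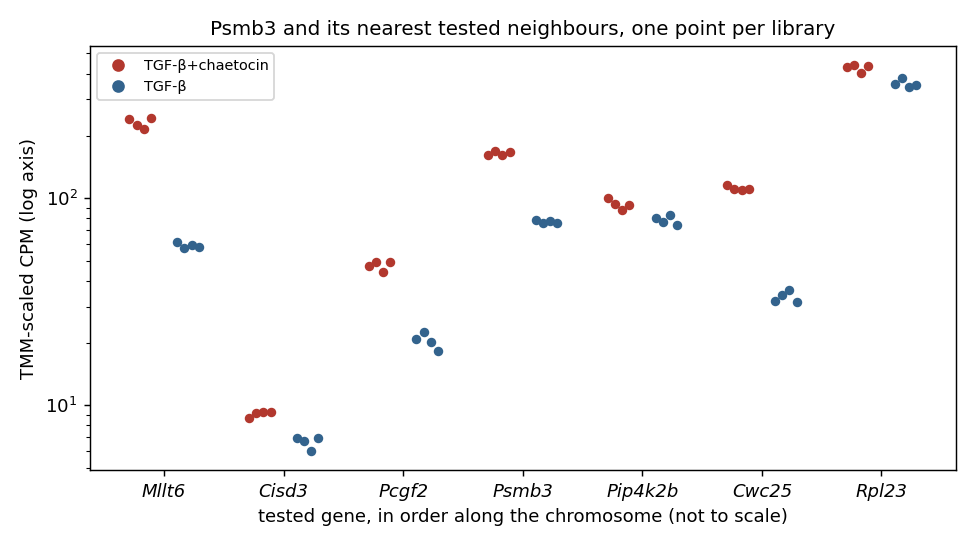
TMM-scaled CPM (log axis) of Psmb3 and the 3 nearest tested genes on each side in their order along chromosome 11, with 1 point per library, chaetocin in red and TGF-β alone in blue. For all 7 genes the chaetocin points lie above the TGF-β points, with the widest gaps at Mllt6, Cwc25, Pcgf2 and Psmb3.

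Among the other 6 beta subunits, 3 rose and 3 fell, against 42.0% and 38.8% of all tested genes. The cutting subunits did not move together. Psmb6, the caspase-like subunit (ENSMUSG00000018286, chromosome 11, 70525367 to 70527858, plus strand), had 51.4, 54.96, 51.4 and 49.8 CPM in the chaetocin libraries, against 62.4, 64.7, 66.6 and 64.4 CPM in the TGF-β libraries. All 4 chaetocin values were below all 4 TGF-β values, with a log2 fold change of -0.31 ± 0.04 (SE), adjusted p = 3.94e-08, and the fall was -0.20 under total count. Psmb5, the chymotrypsin-like subunit and the usual target of proteasome inhibitor drugs, had 77.03, 82.2, 80.4 and 74.04 CPM in the chaetocin libraries, against 84.6, 90.3, 90.4 and 89.4 CPM in the TGF-β libraries. These groups also did not overlap (-0.18 ± 0.04 (SE), adjusted p = 6.46e-05), although under total count the value was -0.06 and did not pass. Psmb7, the trypsin-like subunit, went the other way, with 109, 110.2, 108 and 103 CPM in the chaetocin libraries, against 88.8, 89.02, 88.7 and 85.5 CPM in the TGF-β libraries. It was higher in every chaetocin library (0.29 ± 0.03 (SE), adjusted p = 2.49e-09). Psmb7 shares 405 exon bases with Nek6 on the opposite strand, whose own level was 35.6 CPM with chaetocin and 53.8 CPM with TGF-β alone, and without strand these reads cannot be told apart.

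Of the remaining wall subunits, Psmb4 and Psmb2 rose and Psmb1 was called lower. Psmb4 had 142, 136, 145 and 141 CPM in the chaetocin libraries, against 113, 115, 118 and 116 CPM in the TGF-β libraries, and the groups were separate (0.29 ± 0.03 (SE), adjusted p = 7.09e-10). Psmb2 had 108, 108, 103 and 109.7 CPM in the chaetocin libraries, against 94.7, 96.6, 91.2 and 93.1 CPM in the TGF-β libraries and was likewise separate (0.19 ± 0.03 (SE), adjusted p = 4.09e-06). Psmb1 had 108, 112, 106 and 105 CPM in the chaetocin libraries, against 111, 112, 116 and 117 CPM in the TGF-β libraries. Its groups overlapped, and the fall of -0.08 ± 0.03 (SE), adjusted p = 0.0233 turned into 0.04 without a call under total count. The call was also lost without chaetocin replicate 3 (adjusted p = 0.0511), without chaetocin replicate 4 (adjusted p = 0.0621) or without TGF-β replicate 4 (adjusted p = 0.0565). The summed level of the 7 beta subunits was 759 ± 9.41 CPM with chaetocin and 641 ± 6.18 CPM with TGF-β alone (SD, n = 4 each), a ratio of 1.18. Without Psmb3 the other 6 summed to 594 ± 8.73 CPM with chaetocin and 565 ± 6.75 CPM with TGF-β alone, a ratio of 1.05, the same as that of the alpha ring.

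**Figure D3:**
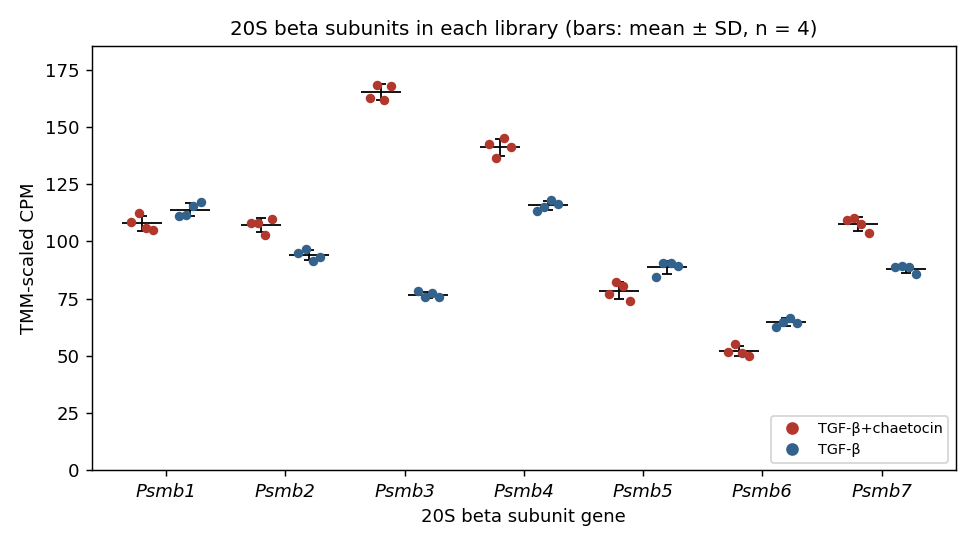
TMM-scaled CPM of the 7 tested beta subunits in each library (axis from 0), with chaetocin in red and TGF-β alone in blue, bars giving mean ± SD of 4 libraries. Psmb3 rises well clear of its TGF-β values, Psmb2, Psmb4 and Psmb7 are moderately higher, Psmb5 and Psmb6 are lower, and the groups of Psmb1 overlap.

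The immunoproteasome genes that the rule left out give the counterparts of these cutting subunits. Psmb9, the counterpart of Psmb6, had 2.95, 3.96, 3.602 and 4.21 CPM in the chaetocin libraries, against 0.413, 1.03, 0.8397 and 0.9 CPM in the TGF-β libraries (2.20 ± 0.23 (SE), adjusted p = 9.81e-10). Psmb8, the counterpart of Psmb5, had 13.5, 14.9, 14.1 and 13.97 CPM in the chaetocin libraries, against 6.201, 8.299, 5.88 and 6.204 CPM in the TGF-β libraries (1.09 ± 0.10 (SE), adjusted p = 8.1e-11). Psmb10, the counterpart of Psmb7, had 12.8, 14.8, 13.7 and 14.7 CPM in the chaetocin libraries, against 6.75, 9.85, 8.84 and 8.67 CPM in the TGF-β libraries (0.71 ± 0.10 (SE), adjusted p = 1.69e-07). All 3 were higher in every chaetocin library. Among all tested genes 42.0% rose, and the groups of 74.7% did not overlap. Per transcript length, Psmb8, Psmb9 and Psmb10 stayed far below their constitutive counterparts. With chaetocin, Psmb9 averaged 2.91 FPKM beside 67.6 FPKM of Psmb6, Psmb8 14.03 beside 90.7 FPKM of Psmb5, and Psmb10 11.1 beside 96.4 FPKM of Psmb7. The interferon-inducible cap genes were not called under TMM: Psme1 had 45.7, 49.8, 46.2 and 52.4 CPM in the chaetocin libraries, against 50.3, 46.8, 49.6 and 48.4 CPM in the TGF-β libraries (-0.01 ± 0.05 (SE), adjusted p = 0.802). Psme2 had 40.7, 44.8, 40.2 and 42.7 CPM in the chaetocin libraries, against 41.8, 39.8, 39.3 and 38.9 CPM in the TGF-β libraries (0.07 ± 0.05 (SE), adjusted p = 0.148), and both sets of groups overlapped. Under total count edgeR called both higher, Psme2 by 0.19 (adjusted p = 0.000637) and Psme1 by 0.10 (adjusted p = 0.0448). With that scaling all 5 left-out genes rose, against 49.2% of all tested genes.

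Of the 7 tested alpha subunits, which form the gated outer rings, 5 rose and 2 fell, against 42.0% and 38.8% of all tested genes, and the groups of all 7 did not overlap, against 74.7%. Psma3 rose most, with 144, 140.2, 142 and 144 CPM in the chaetocin libraries, against 119, 119.7, 120.4 and 124 CPM in the TGF-β libraries (0.24 ± 0.03 (SE), adjusted p = 1.26e-08). Psma6 (0.22 ± 0.03), Psma1 (0.14 ± 0.03), Psma2 (0.11 ± 0.03) and Psma5 (0.11 ± 0.03) rose by smaller amounts. Psma7 had 96.2, 93.2, 91.8 and 91.6 CPM in the chaetocin libraries, against 109, 107, 108 and 107 CPM in the TGF-β libraries. It was lower in every chaetocin library (-0.21 ± 0.03 (SE), adjusted p = 4.05e-07) and also fell under total count, by -0.10 on the log2 scale. Psma4 had 111, 108, 109 and 109 CPM in the chaetocin libraries, against 124, 117, 115 and 122 CPM in the TGF-β libraries. This fall of -0.13 ± 0.03 (SE), adjusted p = 0.000356 shrank to -0.02 under total count and did not pass there. The summed level of the 7 was 792 ± 4.76 CPM with chaetocin and 752 ± 10.3 CPM with TGF-β alone (SD, n = 4 each), a ratio of 1.05.

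The 6 ATPases of the 19S base, which unfold the substrate and thread it into the core, changed least as a class. They had 1 rise, 2 falls and 3 genes that did not pass, against 42.0% higher and 38.8% lower among all tested genes. Psmc2 rose, with 139, 127, 129 and 134 CPM in the chaetocin libraries, against 118, 117, 124 and 124 CPM in the TGF-β libraries (0.14 ± 0.03 (SE), adjusted p = 0.000307). Psmc4 had 114, 108, 112 and 117 CPM in the chaetocin libraries, against 115, 123, 118 and 124 CPM in the TGF-β libraries, and its groups overlapped (-0.09 ± 0.03 (SE), adjusted p = 0.0125). Psmc3 had 153, 155, 159 and 156 CPM in the chaetocin libraries, against 164, 162, 164 and 158 CPM in the TGF-β libraries, again with overlapping groups (-0.06 ± 0.03 (SE), adjusted p = 0.0427), and its call was lost without chaetocin replicate 1 (adjusted p = 0.119), without chaetocin replicate 2 (adjusted p = 0.0557), without TGF-β replicate 1 (adjusted p = 0.0591) or without TGF-β replicate 3 (adjusted p = 0.0587). Under total count both falls became values above 0 that did not pass (0.03 for Psmc4 and 0.05 for Psmc3). Psmc3 shares 215 exon bases with Slc39a13 on the opposite strand. Psmc1 had 195, 198, 182 and 187 CPM in the chaetocin libraries, against 192, 186, 186 and 186 CPM in the TGF-β libraries (0.02 ± 0.03 (SE), adjusted p = 0.453). Psmc6 had 183, 179, 176 and 185 CPM in the chaetocin libraries, against 181, 174, 179 and 177 CPM in the TGF-β libraries (0.03 ± 0.03 (SE), adjusted p = 0.328). Psmc5 had 85.9, 82.6, 80.9 and 84.7 CPM in the chaetocin libraries, against 83.9, 88.5, 85.9 and 87.1 CPM in the TGF-β libraries (-0.04 ± 0.03 (SE), adjusted p = 0.208). The groups of Psmc1, Psmc5 and Psmc6 overlapped, and Psmc1 and Psmc6 were called higher under total count, at 0.14 and 0.14, and on log2(FPKM + 1), at 0.13 and 0.20. The 6 ATPases together summed to 856 ± 13.7 CPM with chaetocin and 854 ± 3.16 CPM with TGF-β alone (SD, n = 4 each), a ratio of 1.002.

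The other base members are the scaffolds Psmd1 and Psmd2 and the ubiquitin receptors Psmd4 and Adrm1. Adrm1 had 94.6, 96.9, 88.6 and 101 CPM in the chaetocin libraries, against 80.98, 88.97, 91.4 and 82.9 CPM in the TGF-β libraries. Its groups overlapped at the level of 1 chaetocin library, and it rose (0.15 ± 0.04 (SE), adjusted p = 0.00152). Psmd1 had 289, 279, 286 and 296 CPM in the chaetocin libraries, against 269, 261, 267 and 276 CPM in the TGF-β libraries (0.10 ± 0.03 (SE), adjusted p = 0.00099), with no overlap. Psmd1 shares 252 exon bases with Htr2b on the opposite strand, a serotonin receptor gene that averaged 37.0 CPM with chaetocin and 5.62 CPM with TGF-β alone, and the part of its reads in the Psmd1 value was not tested. Psmd2 rose by 0.08 ± 0.02 without overlap. Psmd4 had 136, 135, 133 and 136 CPM in the chaetocin libraries, against 129.9, 129, 135 and 126 CPM in the TGF-β libraries, overlapping, and did not pass (0.06 ± 0.03 (SE), adjusted p = 0.079), though it passed without TGF-β replicate 3 (adjusted p = 0.0439). Under total count all 4 rose, against 49.2% of all tested genes.

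In the lid, 6 of 8 genes rose and none fell under TMM, against 42.0% and 38.8% of all tested genes, and all 8 rose under total count, against 49.2%. Psmd14, the enzyme that cuts ubiquitin off the substrate, had 144, 137, 143 and 142 CPM in the chaetocin libraries, against 122, 120.0, 122 and 119.9 CPM in the TGF-β libraries (0.23 ± 0.03 (SE), adjusted p = 3.5e-08). Psmd6, a scaffold subunit of the lid, had 106, 109, 106 and 114 CPM in the chaetocin libraries, against 93.4, 91.96, 89.8 and 94.99 CPM in the TGF-β libraries (0.23 ± 0.03 (SE), adjusted p = 2.21e-07). In both genes all chaetocin libraries were above all TGF-β libraries. Psmd12 (0.19 ± 0.03), Psmd11 (0.17 ± 0.03), Psmd3 (0.12 ± 0.03) and Psmd8 (0.11 ± 0.02) also rose without overlap. Psmd7, the partner of Psmd14 in the lid, had 131, 134, 140.1 and 136 CPM in the chaetocin libraries, against 141, 137, 135 and 134 CPM in the TGF-β libraries (-0.02 ± 0.03 (SE), adjusted p = 0.605). Psmd13 had 94.5, 94.005, 91.1 and 94.4 CPM in the chaetocin libraries, against 90.995, 96.4, 93.5 and 92.05 CPM in the TGF-β libraries (0.01 ± 0.03 (SE), adjusted p = 0.88). Neither passed and the groups of both overlapped. The 8 lid genes summed to 1255 ± 8.92 CPM with chaetocin and 1152 ± 9.27 CPM with TGF-β alone (SD, n = 4 each), a ratio of 1.09.

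The 8 assembly factors included the least abundant of the tested members in a class and those with the widest errors. Of the 8, 2 rose, 2 fell and 4 did not pass, against 42.0% higher and 38.8% lower among all tested genes. Psmd9, a chaperone of the base (ENSMUSG00000029440, chromosome 5, 123169413 to 123250131, plus strand), had 17.3, 18.5, 18.4 and 17.5 CPM in the chaetocin libraries, against 12.2, 14.3, 13.8 and 14.9 CPM in the TGF-β libraries. All chaetocin values were above all TGF-β values (0.37 ± 0.07 (SE), adjusted p = 3.03e-05), and Psmd9 shares 1849 exon bases with the non-coding gene Gm26745 on the opposite strand. Pomp, which guides the beta ring into place and is degraded by the finished core, had 69.1, 71.8, 73.8 and 77.7 CPM in the chaetocin libraries, against 55.4, 62.1, 58.9 and 61.1 CPM in the TGF-β libraries. It was higher in every chaetocin library (0.30 ± 0.04 (SE), adjusted p = 3.05e-07). Psmd10, also known as gankyrin and a chaperone of the base, had 22.4, 23.2, 23.1 and 24.1 CPM in the chaetocin libraries, against 31.9, 28.5, 26.6 and 26.8 CPM in the TGF-β libraries. It was lower in every chaetocin library (-0.30 ± 0.06 (SE), adjusted p = 6.15e-05) and also fell under total count, by -0.18. Psmg4, a partner of Psmg3 in a chaperone of the alpha ring, had 3.503, 4.15, 3.74 and 2.55 CPM in the chaetocin libraries, against 4.18, 4.79, 4.198 and 4.4 CPM in the TGF-β libraries. Those groups did not overlap, but the adjusted p was 0.0414, the log2 fold change -0.33 ± 0.15, and the call was lost under total count (-0.22). It was also lost without chaetocin replicate 1 (adjusted p = 0.0684), without chaetocin replicate 4 (adjusted p = 0.17), without TGF-β replicate 2 (adjusted p = 0.089) or without TGF-β replicate 4 (adjusted p = 0.0599).

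Psmg3 had 8.89, 7.73, 6.74 and 7.27 CPM in the chaetocin libraries, against 9.003, 9.23, 6.72 and 10.4 CPM in the TGF-β libraries (-0.19 ± 0.12 (SE), adjusted p = 0.133). Psmg1, which pairs with Psmg2 in the other chaperone of the alpha ring, had 11.7, 8.76, 12.01 and 12.1 CPM in the chaetocin libraries, against 11.3, 9.9997, 11.01 and 8.54 CPM in the TGF-β libraries (0.13 ± 0.10 (SE), adjusted p = 0.232). Psmg2 had 12.7, 14.95, 13.1 and 12.2 CPM in the chaetocin libraries, against 11.02, 12.99, 11.3 and 13.4 CPM in the TGF-β libraries (0.12 ± 0.08 (SE), adjusted p = 0.199). All 3 overlapped between groups, and chaetocin replicate 2 was the lowest of its group for Psmg1 and the highest for Psmg2. Single libraries decided some of these results: Psmg1 passed without chaetocin replicate 2 (adjusted p = 0.0395), and Psmg3 passed without chaetocin replicate 1 (adjusted p = 0.0438) or without TGF-β replicate 3 (adjusted p = 0.0122). Psmd5, a base chaperone, had 69.1, 70.2, 67.8 and 69.2 CPM in the chaetocin libraries, against 71.2, 69.8, 68.9 and 65.3 CPM in the TGF-β libraries and also overlapped (0.01 ± 0.04 (SE), adjusted p = 0.876). Under total count Psmd5, Psmg1 and Psmg2 rose, by 0.12, 0.25 and 0.23.

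Of the alternative caps and the inhibitor, Psme4 had the largest fall of all 46 members. Psme4 (ENSMUSG00000040850, chromosome 11, 30771726 to 30880361, plus strand) encodes PA200, a nuclear cap that opens the core without ATP and is known for promoting the breakdown of acetylated histones. It had 203, 209, 207 and 203 CPM in the chaetocin libraries, against 288, 284, 276 and 291 CPM in the TGF-β libraries. The groups were far apart in relation to their spread (-0.47 ± 0.03 (SE), adjusted p = 9.27e-16), and the fall was -0.36 under total count. Psme3, which encodes the nuclear cap PA28 gamma, had 142, 144, 147 and 144 CPM in the chaetocin libraries, against 147, 148, 151 and 154 CPM in the TGF-β libraries. It overlapped and did not pass (-0.06 ± 0.03 (SE), adjusted p = 0.06), but it passed without chaetocin replicate 3 (adjusted p = 0.0374), without TGF-β replicate 1 (adjusted p = 0.0233) or without TGF-β replicate 2 (adjusted p = 0.0317). Psmf1, whose product PI31 was first described as an inhibitor of the core, had 43.7, 47.9, 45.2 and 46.4 CPM in the chaetocin libraries, against 41.1, 46.3, 48.1 and 45.1 CPM in the TGF-β libraries, also overlapping (0.02 ± 0.05 (SE), adjusted p = 0.734). These 3 genes summed to 396 ± 5.75 CPM with chaetocin and 480.1 ± 7.35 CPM with TGF-β alone (SD, n = 4 each), a ratio of 0.824, the lowest of the 7 classes.

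**Figure D4:**
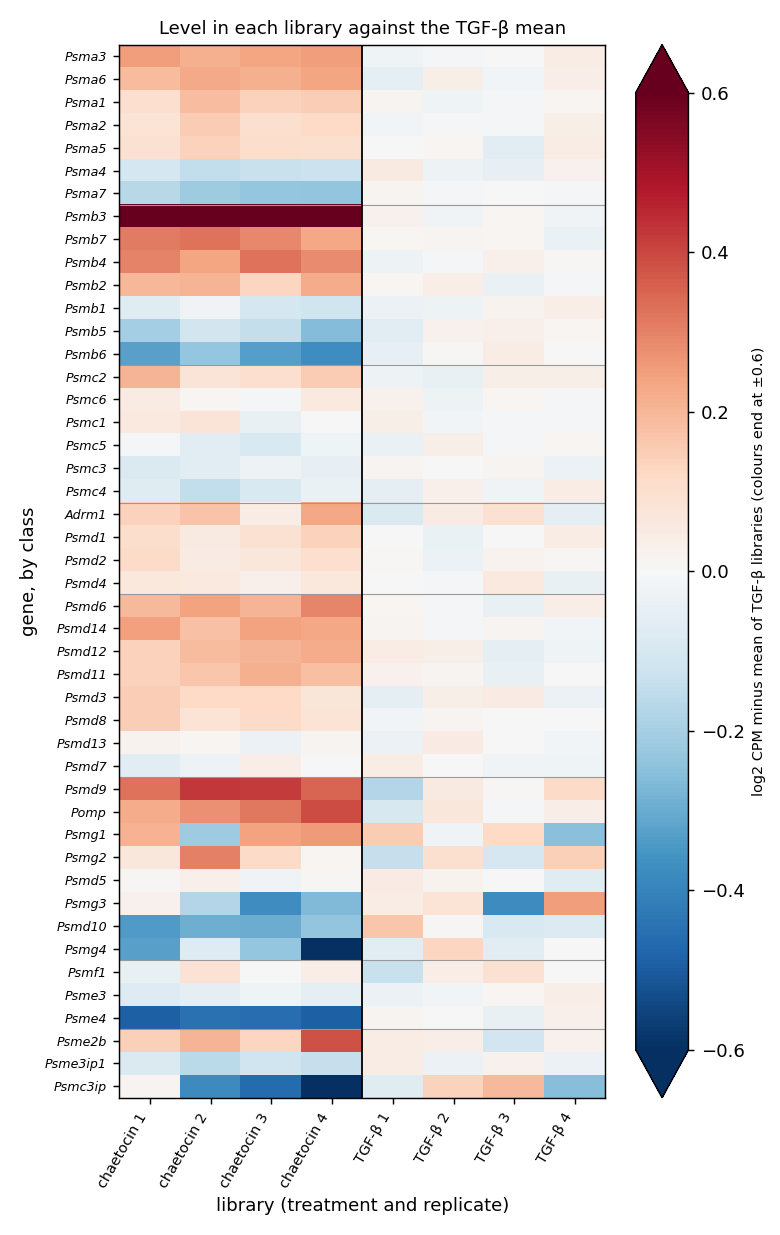
Log2 CPM of each tested member in each library minus the mean of the 4 TGF-β libraries, by class, with chaetocin libraries on the left and TGF-β libraries on the right; colours end at ±0.6. The rows of Psmb3 and Psme4 keep 1 colour across all 4 chaetocin libraries, while low-count genes such as Psmg3, Psmg4 and Psmc3ip vary from library to library.

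The remaining 3 members belong to no class. Psmc3ip matches by name only and encodes a meiotic recombination factor. It had 7.35, 5.56, 5.27 and 4.02 CPM in the chaetocin libraries, against 6.89, 7.99, 8.298 and 6.07 CPM in the TGF-β libraries, overlapping (-0.36 ± 0.14 (SE), adjusted p = 0.0219), and the call was lost under total count and without chaetocin replicate 4 (adjusted p = 0.111), without TGF-β replicate 2 (adjusted p = 0.0519) or without TGF-β replicate 3 (adjusted p = 0.0719). Psme3ip1, named for its binding to PA28 gamma, had 46.6, 44.4, 45.6 and 44.96 CPM in the chaetocin libraries, against 51.1, 48.3, 50.5 and 48.4 CPM in the TGF-β libraries (-0.13 ± 0.04 (SE), adjusted p = 0.00678), without overlap, and was -0.01 under total count. Psme2b is a near copy of Psme2, so its reads may be shared with it. Psme2b had 9.61, 10.03, 9.54 and 11.4 CPM in the chaetocin libraries, against 9.003, 8.97, 8.05 and 8.89 CPM in the TGF-β libraries (0.21 ± 0.09 (SE), adjusted p = 0.0361). Its groups did not overlap, and the call was lost without chaetocin replicate 2 (adjusted p = 0.0549), without chaetocin replicate 4 (adjusted p = 0.153), without TGF-β replicate 3 (adjusted p = 0.114) or without TGF-β replicate 4 (adjusted p = 0.0545).

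The 2 untested members are tissue-specific subunits. Psma8, the testis form of an alpha subunit, had counts of 14, 6, 8 and 13 in the chaetocin libraries, against 8, 8, 8 and 11 in the TGF-β libraries. Psmb11, the thymus form of a beta subunit, had counts of 16, 5, 8 and 14 in the chaetocin libraries, against 1, 0, 1 and 2 in the TGF-β libraries. The Psmb11 groups did not overlap, at 0.684, 0.3195, 0.534 and 0.893 CPM with chaetocin, while every TGF-β library was under the 3-count floor. Summed over libraries, 43 counts with chaetocin stood against 4 with TGF-β alone, a ratio of 14.0 after division by total counts, with an exact 95% interval of 5.10 to 53.8 that covers counting error only. In the fit without a count filter Psmb11 was called higher (adjusted p = 1.35e-06).

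Per transcript length, the members of a ring lay within a few fold of each other. Psmd8, a lid subunit, was the highest member at 288 ± 5.88 FPKM with chaetocin and 247 ± 3.34 FPKM with TGF-β alone (SD, n = 4 each). The lowest tested member was Psmc3ip with chaetocin, at 4.74 FPKM, and Psmd9 with TGF-β alone, at 5.18 FPKM. All ring, base and lid subunits tested averaged at least 51.2 FPKM in both groups. Among the assembly factors Pomp averaged 75.7 ± 9.64 FPKM with chaetocin and 46.3 ± 8.96 FPKM with TGF-β alone (SD, n = 4 each), and the other 7 averaged at most 21.1 FPKM in either group. Psmb3 averaged 224 ± 5.16 FPKM with chaetocin and 96.2 ± 1.49 FPKM with TGF-β alone (SD, n = 4 each). In FPKM, Psmb3 was 2.35 ± 0.0595 times the mean of the other 6 beta subunits with chaetocin and 1.14 ± 0.0301 times with TGF-β alone. The highest beta subunit was 3.49 ± 0.113 times the lowest with chaetocin, where Psmb3 was highest and Psmb1 lowest, and 1.69 ± 0.0795 times with TGF-β alone, where Psmb2 was highest. The same ratio in the alpha ring was 2.11 ± 0.169 with chaetocin and 2.22 ± 0.0708 with TGF-β alone, which overlapped.

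**Figure D5:**
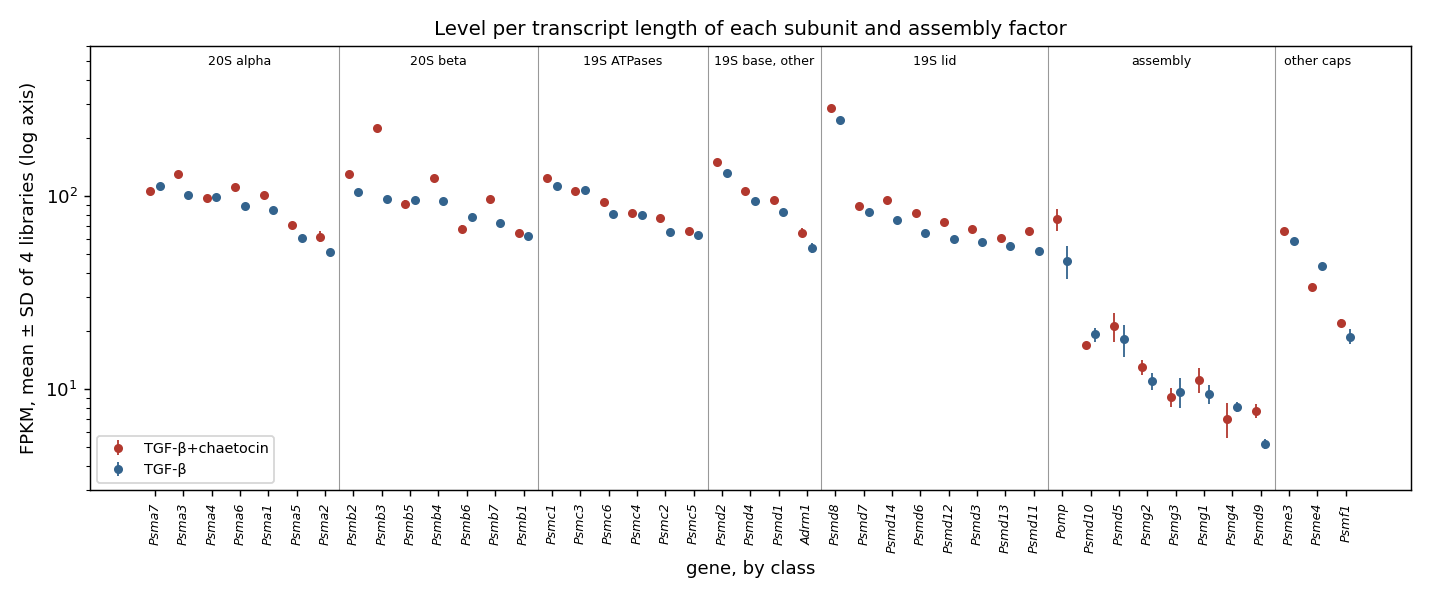
Mean FPKM (log axis, bars are SD of 4 libraries) of the tested classified members by class, chaetocin in red left of TGF-β alone in blue. Psmb3 lies above the other beta subunits with chaetocin, Psmd8 of the lid is the highest member in both groups, and the assembly factors other than Pomp lie below the ring, base and lid subunits.

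The deposited FPKM values were not a fixed rescaling of the counts for every gene. The ratio of count to FPKM in a library gives the length the authors' program used, and for the median member it ranged over 0.017 on the log2 scale across libraries, against 0.078 for the median gene of the table. Pomp and Psmd5 ranged over 0.858 and 0.661. For Pomp the coefficient of variation over the 4 libraries was 4.97% in CPM and 12.7% in FPKM with chaetocin, and 4.97% in CPM and 19.4% in FPKM with TGF-β alone. For Psmd5 it was 1.42% in CPM and 17.1% in FPKM with chaetocin, and 3.65% in CPM and 19.1% in FPKM with TGF-β alone. In the authors' deposited table the log2 ratio of Pomp was 0.71, where the counts gave 0.30. At the authors' FDR under 0.05, 24 of the 48 members had a ratio above 0 and 7 below 0, against 34.2% and 22.6% of the 22274 genes. The test behind that FDR is not named, so the sign of the ratio may not be the direction tested. Psmc4 (0.02) and Psme3ip1 (0.007) counted among the 24, but edgeR called both lower (-0.09 and -0.13). The authors' log2 ratios were 0.11 above the TMM values for the median member, the size of the shift between scalings. Of the members, 4 (Pomp, Psmd5, Psme3 and Psmf1) departed from that shift by more than 0.1.

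Genes that are known to control the proteasome genes moved in both directions. Of 12, 3 rose, 6 fell and 3 did not pass, against 42.0% higher and 38.8% lower among all tested genes, with a median log2 fold change of -0.12. Under total count 4 rose and 5 fell, against 49.2% and 30.9% of all tested genes. Nfe2l1 itself had 469, 464, 457 and 469 CPM in the chaetocin libraries, against 524, 519, 537 and 555 CPM in the TGF-β libraries, a fall without overlap (-0.20 ± 0.02 (SE), adjusted p = 1.5e-08), which the fits on FPKM put at 0.01. Nfe2l2, which encodes the related factor NRF2, had 135, 132, 135 and 136 CPM in the chaetocin libraries, against 165, 164, 171 and 171 CPM in the TGF-β libraries (-0.32 ± 0.03 (SE), adjusted p = 3.32e-11), also without overlap. Ngly1, whose product removes sugar chains from NRF1 and is needed for its activity, had 22.8, 25.2, 23.7 and 23.5 CPM in the chaetocin libraries, against 12.999, 14.9, 15.5 and 17.4 CPM in the TGF-β libraries (0.64 ± 0.07 (SE), adjusted p = 5.84e-09). Nfyc, a subunit of the factor that binds CCAAT, averaged 42.01 ± 3.46 CPM with chaetocin and 27.6 ± 0.7897 CPM with TGF-β alone (SD, n = 4 each, 0.61 ± 0.05 (SE), adjusted p = 5.46e-11). Of its other subunits, Nfyb was higher with chaetocin (0.42 ± 0.05 (SE), adjusted p = 6.02e-08) and Nfya lower (-0.24 ± 0.04 (SE), adjusted p = 1.02e-06). Sel1l, a cofactor of the membrane ubiquitin ligase that acts on NRF1, fell and averaged 131 ± 4.24 CPM with chaetocin and 191 ± 3.56 CPM with TGF-β alone (SD, n = 4 each, -0.54 ± 0.03 (SE), adjusted p = 5.77e-16), and so did Btrc, the substrate receptor of another ligase, at 15.8 ± 0.879 CPM with chaetocin and 26.4 ± 0.568 CPM with TGF-β alone (SD, n = 4 each, -0.74 ± 0.06 (SE), adjusted p = 5.97e-12). By contrast, all 7 listed NRF2 target genes rose, against 42.0% of all tested genes, with a median log2 fold change of 2.20. Like the other lists, this one was chosen with earlier results of these data known, so the count is a description only. Hmox1 averaged 588 ± 22.5 CPM with chaetocin and 99.1 ± 3.43 CPM with TGF-β alone (SD, n = 4 each, 2.57 ± 0.03), and Srxn1 365 ± 14.6 CPM with chaetocin and 41.1 ± 2.68 CPM with TGF-β alone (SD, n = 4 each, 3.15 ± 0.04). These 7 had log2 fold changes between 1.10 and 3.52, while the 46 proteasome genes had a median of 0.09.

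Ubb, a polyubiquitin gene, averaged 825 ± 25.04 CPM with chaetocin and 1003 ± 24.6 CPM with TGF-β alone (SD, n = 4 each, -0.28 ± 0.02 (SE), adjusted p = 1.95e-11), and the activating enzyme gene Uba1 also fell (-0.22 ± 0.02). Ubiquitin genes carry near-identical coding repeats, so the value of Ubb may hold reads shared with others. Of 19 proteasome-associated and shuttle factors tested, 8 rose, 8 fell and 3 did not pass, shares near the 42.0% higher and 38.8% lower of all tested genes, with a median of 0.02. Zfand2a, a stress-induced factor that binds the 19S cap, had 202, 197, 198 and 207 CPM in the chaetocin libraries, against 106, 106, 102 and 108 CPM in the TGF-β libraries (0.93 ± 0.03 (SE), adjusted p = 2.16e-21). Its change was nearly as large as that of Psmb3, with no overlap. Bag6, a chaperone that hands misfolded proteins to the proteasome, averaged 359.9 ± 11.6 CPM with chaetocin and 213 ± 7.22 CPM with TGF-β alone (SD, n = 4 each, 0.76 ± 0.03 (SE), adjusted p = 1.64e-19). The shuttle gene Ubqln4 averaged 52.1 ± 1.78 CPM with chaetocin and 87.8 ± 4.65 CPM with TGF-β alone (SD, n = 4 each, -0.75 ± 0.04 (SE), adjusted p = 1.33e-15), and Ube3c, a ligase on the proteasome, 77.5 ± 3.0 CPM with chaetocin and 104 ± 2.51 CPM with TGF-β alone (SD, n = 4 each, -0.42 ± 0.03 (SE), adjusted p = 6.6e-12). Of VCP, the segregase that extracts ubiquitylated proteins, and its cofactors, 3 of 13 rose and 9 fell with a median of -0.11, against 42.0% and 38.8% of all tested genes. Under total count 5 rose and 3 fell, against 49.2% and 30.9%. In that list Faf1 (0.51 ± 0.03) and Ubxn4 (0.23 ± 0.03) rose, and Derl2 (-0.43 ± 0.05) fell. The other lists, like the members, were described by counts and medians alone.

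No source used here says whether reads were counted by strand. In the GENCODE M21 annotation, which matched all 48 members by ID, 10 members share exon bases with a gene on the opposite strand. Besides Psmb7, Psmc3, Psmd1 and Psmd9 these include Psmd13, which shares 342 bases with Sirt3, Psmc3ip, which shares 385 with Mlx, and Psme3ip1, which shares 61 with Rspry1. The KEGG proteasome annotation in the deposited table holds 49 genes, of which 40 are members. The 9 others are the 5 left-out genes, Sem1, Ifng, Gm21972 and Gm9774, and Sem1, a small lid subunit, rose by 0.11 ± 0.05 (adjusted p = 0.0355) with overlapping groups.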

How the data were processed

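RNA of 8 samples of RFB mouse kidney cells, 4 with TGF-β and chaetocin and 4 with TGF-β alone, was extracted with an RNeasy kit and made into libraries with a SMARTER mRNA kit, per the labels' protocols. Groups come from the treatment label. Per the submitters' processing notes the build was GRCm38 (mm10). No source used here gives the aligner, counter, annotation release or strand setting, so these steps by the authors are unknown. Each gene of the deposited table has a raw read count and an FPKM in every library, per the file headers. It also holds the authors' log2 ratio of mean FPKM and the authors' p-value and FDR, whose test it does not name, and 0 columns of other samples.

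The deposited counts were tested in R 4.3.3 with edgeR 4.0.16 (quasi-likelihood F test, filterByExpr, TMM scaling, no covariate). Benjamini-Hochberg adjustment ran over the 14608 tested genes, with calls under 0.05, and the SE was the size of the log2 fold change over the square root of F. CPM values are TMM-scaled. The common biological coefficient of variation was 2.94%, so small changes pass. Every pair of replicates differed beyond sampling noise (chi-square per gene 2.00 to 2.56), and each counted as 1 sample. Intervals and floors cover counting error only. Levels per length are the deposited FPKM. Alternatives were other scalings and filters, DESeq2 1.42.0, limma 3.58.1 (voom, and on log2(FPKM + 1) or log2(FPKM + 0.1)), glmTreat, a replicate block and each library left out. The members and lists were chosen with earlier results of these data known. Values per library were given for the highest and lowest member of each class, each member that fell or did not pass, the immunoproteasome genes and their counterparts, Nfe2l1 and Nfe2l2, with 2 called genes in each direction from every other pathway list. The marker genes named with a fold change, Nfya and Nfyb were chosen after their values were seen. Some results for genes of the lists are not reported here.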

Additional observations from a re-analysis of the deposited data

Results flagged for a closer look

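Of 102 groups of 4 libraries examined (51 genes), 7 had 1 library that stood apart from the other 3, judged by its gap relative to the range of the group. Chance flags about 1 group in 20. With chaetocin, replicate 2 was low for Psmg1 at 8.76 CPM (the others 11.7 to 12.1 CPM), and replicate 3 was low for Psmd13 at 91.1 CPM (the others 94.0 to 94.5 CPM). With TGF-β alone, replicate 4 was high for Psma2 at 128 CPM (the others 123.0 to 124 CPM) and low for Psmb7 at 85.5 CPM (the others 88.7 to 89.0 CPM). Replicate 1 of that group was high for Psmc1 at 192 CPM (the others 186 CPM), replicate 3 was low for Psme2b at 8.05 CPM (the others 8.89 to 9.003 CPM), and replicate 2 was high for Psmb8 at 8.30 CPM (the others 5.88 to 6.20 CPM). Psma2, Psmb7 and Psmb8 were called higher with chaetocin in every fit that left out 1 library, while Psme2b lost its call without TGF-β replicate 3 and Psmg1 passed without chaetocin replicate 2. Psmc1 and Psmd13 did not pass in any of those fits.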

How the results depend on the processing

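The counts and the median moved mainly with the scaling. Members called higher numbered 20 to 32 and members called lower 4 to 15, apart from glmTreat against a fold of 1.5, which called 1 higher and 0 lower because it asks for a larger change. Total-count scaling and all 3 fits on FPKM called 4 lower. The median log2 fold change (0.09) was 0.21 under total count, 0.22 in the 3 FPKM fits, 0.105 with DESeq2, 0.11 with DESeq2 size factors and with at least 1 CPM in 4 samples, and 0.065 without a filter. Leaving out 1 library each gave 21 to 23 higher, 9 to 12 lower and a median of 0.078 to 0.093. Same-numbered replicates did not deviate together (r = -0.01 to 0.04 over 4 pairs), and with the replicate block 22 were higher, 12 lower and the median was 0.09, with all 46 calls as before. Psmb11 was tested and called higher in the fits without a filter and with DESeq2.

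Psmb3 (1.07 to 1.22) passed under every alternative, and Psme4, Psmb6, Psma7 and Psmd10 fell under every one except glmTreat, where they kept their sign. The following changed sign, nearly all within 0.1 of 0; the cause was not tested. Under total count the log2 fold changes were Psmb1 0.0359, Psmc3 0.055, Psmc4 0.0259, Psmc5 0.0692, Psmd7 0.0975, Psme3 0.0573 and Psme1 0.101. On log2(FPKM + 1) they were Psmb1 0.0479, Psmc4 0.0242, Psmc5 0.0647, Psmd7 0.0975, Psme3 0.167, Psme3ip1 0.00639, Psme1 0.104 and Nfe2l1 0.00867, with or without the FPKM filter. On log2(FPKM + 0.1) they were Psmb1 0.0486, Psmc4 0.0244, Psmc5 0.0656, Psmd7 0.0985, Psme3 0.169, Psme3ip1 0.0066, Psme1 0.106 and Nfe2l1 0.00873. Without a count filter they were Psmc1 -0.0136, Psmc6 -0.00875, Psmd13 -0.0313, Psmd5 -0.0303 and Psmf1 -0.0184. With at least 1 CPM in 4 samples they were Psmd7 0.00138 and Psme1 0.00531, and with DESeq2 size factors Psme1 0.00225. Leaving out 1 library, the ranges were Psmd13 -0.0131 to 0.0147, Psmd5 -0.0258 to 0.0171, Psmd7 -0.0364 to 0.000601, Psmf1 -0.0318 to 0.0436 and Psme1 -0.0534 to 0.0187. Changes under 0.1 on the log2 scale are at the limit set by the choice of scaling.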
